A study of Caenorhabditis japonica with 3 samples.

Results

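The embryos described here are 10 single embryos of the nematode *Caenorhabditis japonica*, 5 taken from 190 to 230 minutes after the 4-cell stage and 5 taken from 140 to 180 minutes, at steps of 10 minutes. They were chosen by their labelled time, from 46 embryos in the series. The windows themselves were set with earlier results of these data known. All 10 were sequenced in the middle one of 3 pooled libraries, so the comparison does not cross a border between libraries. Each time is represented by 1 embryo, and the embryo is the replicate. The labels name no strain, allele or agent. By the protocol, embryos were cut out of adult females or hermaphrodites, washed in bleach, picked with 4 cells, incubated for their time and frozen, in both windows alike. Their polyadenylated RNA was extracted with TRIzol and amplified by CEL-Seq. The labels do not say which embryos shared a mother. The sheet of embryos gives barcode 16 to the embryo at 140 minutes and counts down to barcode 7 at 230 minutes, so that time and barcode order cannot be told apart.

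*C. japonica* is a relative of *C. elegans* that reproduces through males and females. In *C. elegans*, the first divisions run largely on transcripts loaded by the mother, and these are degraded in waves while the embryo's own genome becomes active. Gastrulation and the commitment of cells to gut, muscle, skin and nervous system follow. CEL-Seq attaches a barcode to the polyadenylated RNA of each embryo, pools the embryos, amplifies the RNA linearly and reads each transcript near its 3′ end. The files list genes by identifier and pair none with a symbol, so no gene is given a name, a role or a cell type here, and the labelled times were not checked against marker genes.

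Reads in the 3955 listed genes numbered 12178, 219980, 93100, 325334 and 78473 in the embryos at 190, 200, 210, 220 and 230 minutes, against 114402, 17789, 1719, 142499 and 2643 at 140, 150, 160, 170 and 180 minutes. The later embryos held 145813 ± 125400 reads and the earlier ones 55810 ± 67354 (SD, n = 5 each), a difference within the spread (exact two-sided permutation p = 0.21, adjusted over 3 embryo values 0.24). The embryos at 160, 180 and 190 minutes lay below 15457 reads, 0.25 of the median of the 46 embryos, and are called shallow. Levels are given as CPM, the reads of a gene scaled to a common total of tested reads with TMM factors. A single read was worth 331 CPM at 160 minutes and 264 at 180 minutes, but 3.64 at 220 minutes. Results that rest on the shallow embryos are given with and without them. For genes compared between windows, the fit without them also lacks the shallow embryo at 270 minutes, which otherwise helps to estimate the spread. The closest pair among the 10 embryos had a Pearson correlation of 0.89 in log2 CPM and the least alike pair 0.35. All 10 were counted as separate.

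The later embryos spread their reads over more genes. At a common depth of 1719 reads, the total of the shallowest embryo, 891, 885, 887, 877 and 899 genes were expected at 190, 200, 210, 220 and 230 minutes, against 838, 840.2, 831, 839 and 884 at 140, 150, 160, 170 and 180 minutes. Only the embryo at 180 minutes reached into the later range. The means were 888 ± 8.04 genes in the later window and 846 ± 21.4 in the earlier one (SD, n = 5 each), 41.6 genes apart (exact two-sided permutation p = 0.016, adjusted p = 0.048, smallest p possible 0.0079). The difference did not pass without the embryo at 190, 200, 210 or 230 minutes (exact permutation adjusted p = 0.071 in each case), and over all alternatives the adjusted p ran between 0.024 and 0.086. Without the 3 shallow embryos it was 48.3 genes, where 4 against 3 embryos allow no exact permutation p below the 0.029 found. At 10000 reads, which 8 of the 10 embryos reached, the later embryos held 2177 to 2207 genes and the earlier ones 2053 to 2112, with no overlap.

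**Figure D1:**
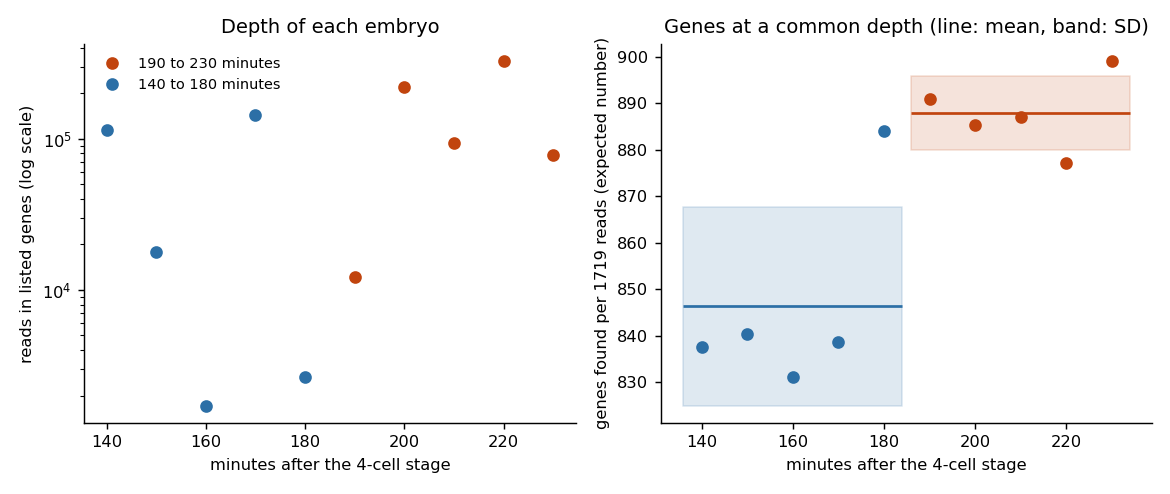
The left panel plots the reads in listed genes of each embryo on a log scale against minutes after the 4-cell stage, and the right panel the expected number of genes per 1719 reads, with the mean of each window as a line and its SD as a band. The 5 embryos from 190 to 230 minutes sit between 877 and 899 genes, above all embryos from 140 to 180 minutes but the one at 180 minutes with 884.

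The share of reads taken by the 10 most abundant genes of an embryo was 9.32% ± 2.04 in the later window and 11.6% ± 2.96 in the earlier one (SD, n = 5 each; exact two-sided permutation p = 0.24, adjusted p = 0.24). With the 50 most abundant genes the windows separated: 20.3% to 24.8% in later embryos and 25.7% to 32.6% in earlier ones (exact permutation p = 0.0079, the smallest the design allows, adjusted p = 0.024). Leaving out embryos was tried for the 10-gene share only, where the adjusted exact permutation p ran from 0.21 to 0.49. The 10-gene difference, -2.25 percentage points with all embryos, was -0.94 without the embryo at 160 minutes and -1.06 without the shallow embryos. Set beside the other times, the median at the common depth was 981 genes in the embryos of 1, 2 and 4 cells, 993 from 10 to 50 minutes, 875 from 60 to 130, 839 from 140 to 180, 887 from 190 to 230, 887 from 240 to 290, 849 from 300 to 360 and 869 from 370 to 430 minutes. The earlier window thus had the lowest median of the 8 windows, though its range of 831 to 884 lay within that of 60 to 130 minutes, 798 to 905.

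Between the windows, few of the genes tested were called as changed. Of 1797 genes tested, 21 (1.17%) passed an edgeR adjusted p of 0.05, 13 higher and 8 lower from 190 to 230 minutes, and all 21 changed by more than 2-fold. The rises lay between 1.53 and 4.09 on the log2 scale with a median of 2.96, and the falls between 1.74 and 3.31 in size with a median of -2.39. The edgeR adjusted p-values ran from 0.0016 to 0.041. In whole embryos, more or fewer cells of a type and more or less RNA per cell cannot be told apart. By estimated change alone, called or not, 208 genes were higher and 96 lower by more than 2-fold, so the calls do not count all changes. At an unadjusted p under 0.05 there were 239 genes, 157 higher and 82 lower, and the median log2 change of all genes tested was 0.12. The split of the calls depended on the scaling: it was 9 higher and 9 lower with library size alone.

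The count depended on the embryos. It was 5 without the embryo at 140 minutes, 9 without 150, 6 without 170, 8 without 210 and 35 without 220, and 13 without the shallow embryos, 6 higher and 7 lower. Of the 21 genes, 9 were called again without the shallow embryos, 3 were called whichever embryo was left out, and all 21 kept their direction in each alternative that tested them.

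The largest rise was that of CJA01042. It had 343, 243, 189.99, 124 and 866 CPM at 190, 200, 210, 220 and 230 minutes, against 11.5, 67.1, 0, 18.1 and 0 CPM at 140, 150, 160, 170 and 180 minutes. Every later embryo stood above every earlier one. The later embryos averaged 353 ± 298 CPM and the earlier ones 19.3 ± 27.8 CPM (SD, n = 5 each). The log2 change was 4.09 ± 0.78 (SE, edgeR adjusted p = 0.0052). The earlier values rest on 4 reads in all, against 158 later. The ratio of summed reads per total was 15.1, with a 95% exact counting interval of 5.79 to 56.2. The gene had no read in the 16 embryos of the early library and 451 reads from 300 to 430 minutes. It did not pass without the embryo at 140 or at 170 minutes (edgeR adjusted p = 0.064 and 0.063, in a range of 8.7e-04 to 0.064 over the alternatives).

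CJA04437 had 257, 124, 367, 229 and 1097 CPM from 190 to 230 minutes in order of time, against 11.5, 0, 0, 72.3 and 0 CPM from 140 to 180 minutes. The groups did not overlap. The log2 change was 3.44 ± 0.79 (SE, edgeR adjusted p = 0.027), on 194 reads later and 9 earlier. Without the embryo at 170 minutes, which holds 8 of the 9, it was 5.35 (edgeR adjusted p = 0.041). Without the embryo at 140, 150 or 230 minutes the gene did not pass (edgeR adjusted p = 0.14, 0.074 and 0.053), nor without the shallow embryos (0.13), in a range of 0.0077 to 0.14 over the alternatives. It had 1 read in the early library.

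Among the falls, CJA38381 had the largest fold. Its levels were 943, 1062, 760.0, 696 and 1444 CPM at 190, 200, 210, 220 and 230 minutes, against 3495, 1745, 42356, 1373 and 3699 CPM at 140, 150, 160, 170 and 180 minutes. The shallowest embryo, at 160 minutes, stood far above the other 9, and without it the windows differed by less: the log2 change was -3.31 ± 0.77 (SE, edgeR adjusted p = 0.027) with all embryos, -1.28 without that embryo (edgeR adjusted p = 0.31) and -1.12 without the shallow ones (edgeR adjusted p = 0.51, in a range of 0.0016 to 0.51 over the alternatives). It also missed the threshold without the embryo at 190 or 210 minutes (edgeR adjusted p = 0.064 and 0.071). Its level moved with depth over the whole series, and the part of depth in this fall was not tested: in CPM of all listed reads, with no TMM scaling, its median was 4921 in the 14 shallow embryos and 964 in the other 32, and 5 shallow embryos but none of the others exceeded 10000.

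CJA08747 fell more evenly. It had 85.8, 275, 152, 98.3 and 43.3 CPM at 190, 200, 210, 220 and 230 minutes, against 825, 1343, 331, 1210 and 0 CPM at 140, 150, 160, 170 and 180 minutes. Apart from the 180-minute embryo with no read in a total of 2643, each earlier embryo was above each later one. The 331 CPM at 160 minutes rests on 1 read, as does the 85.8 CPM at 190 minutes. The later embryos averaged 131 ± 89.4 CPM and the earlier ones 742 ± 572 CPM (SD, n = 5 each). The log2 change was -2.64 ± 0.51 (SE, edgeR adjusted p = 0.0060). The gene was called whichever embryo was left out and without the shallow embryos, but not by limma-trend (log2 change -1.59, adjusted p = 0.29, in a range of 8.7e-04 to 0.29 over the alternatives). Over the series, in CPM of all listed reads, it averaged 1277 ± 263 (SD, n = 3) in embryos of 1, 2 and 4 cells, 1807 ± 235 (n = 5) at 10 to 50 minutes, 32.5 ± 22.3 (n = 6) at 240 to 290 and 7.17 ± 7.62 (n = 7) at 370 to 430 minutes. Its level was thus lower in each window after 140 to 180 minutes than in that window or any before it.

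**Figure D2:**
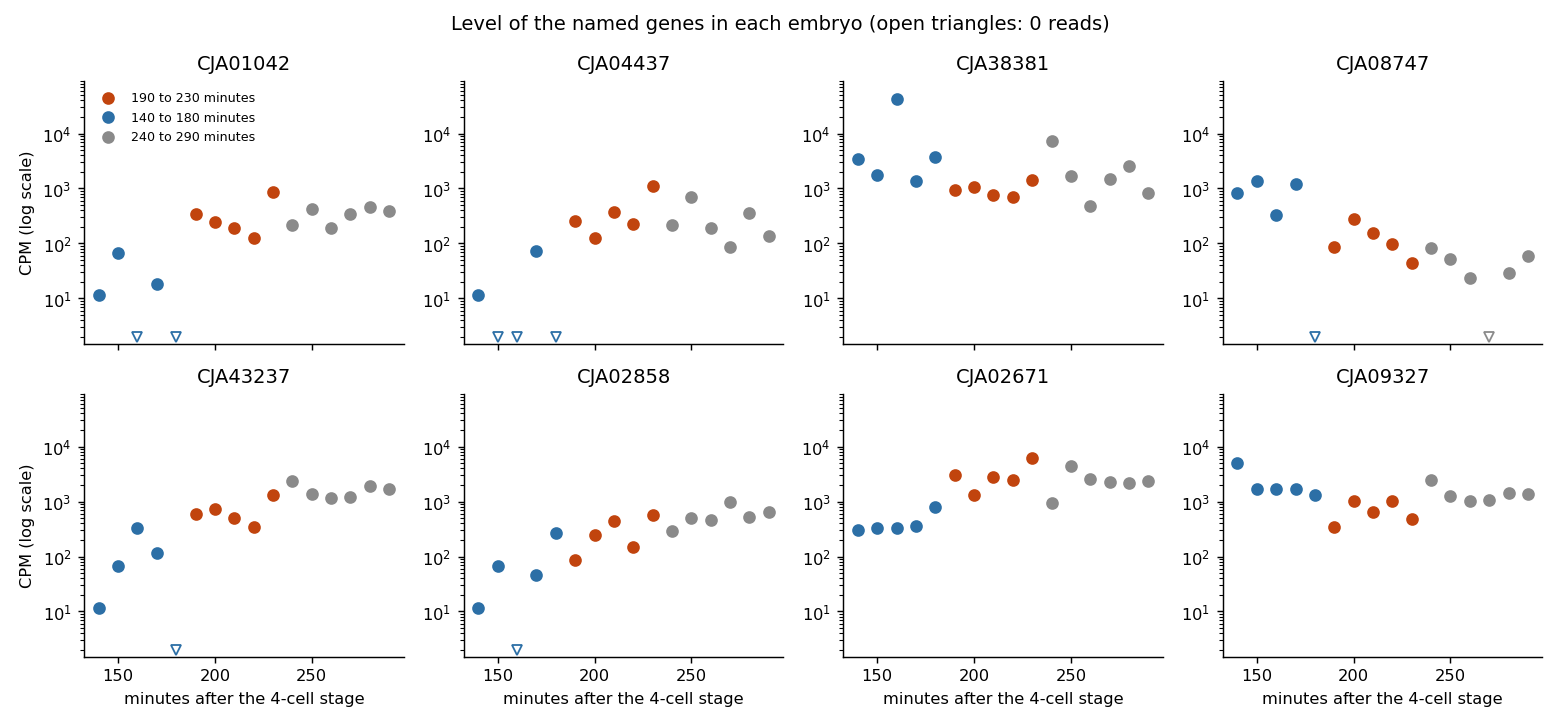
CPM on a log scale in each of the 16 embryos of the middle library against minutes after the 4-cell stage, for the 8 named genes, coloured by window, with open triangles for embryos with 0 reads. CJA01042 and CJA04437 stand higher in each embryo from 190 to 230 minutes than in any from 140 to 180 minutes, and CJA38381 peaks at 42356 CPM in the embryo at 160 minutes.

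Over the 10 embryos the 13 rises and 8 falls formed opposed blocks, which is a description, since the same values chose them. The median log2 CPM of the rises was 9.28, 8.77, 9.58, 8.28 and 10.1 at 190, 200, 210, 220 and 230 minutes, against 5.78, 7.27, 4.36, 6.67 and 8.15 at 140, 150, 160, 170 and 180 minutes. For the falls it was 6.73, 7.77, 7.25, 7.92 and 6.68 in the later embryos, against 9.97, 9.72, 8.46, 9.84 and 8.63 in the earlier ones. Both medians, with TMM scaling, separated the windows in every embryo, but in the shallow ones they rest on few reads. At 160, 180 and 190 minutes, 7, 5 and 1 of the 13 rises had 0 reads, and 3, 1 and 3 of the 8 falls. The 8.15 of the rises at 180 minutes and the 8.46 of the falls at 160 minutes are each the value of 1 read. In 8 of the 13 rises all later embryos stood above all earlier ones, against 57 of all genes tested (3.17%), and in 3 of the 8 falls all stood below, against 10 (0.556%). These counts rest on the TMM scaling. Without it, the windows overlapped in CJA02671 and CJA43237, both among those 8 rises.

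**Figure D3:**
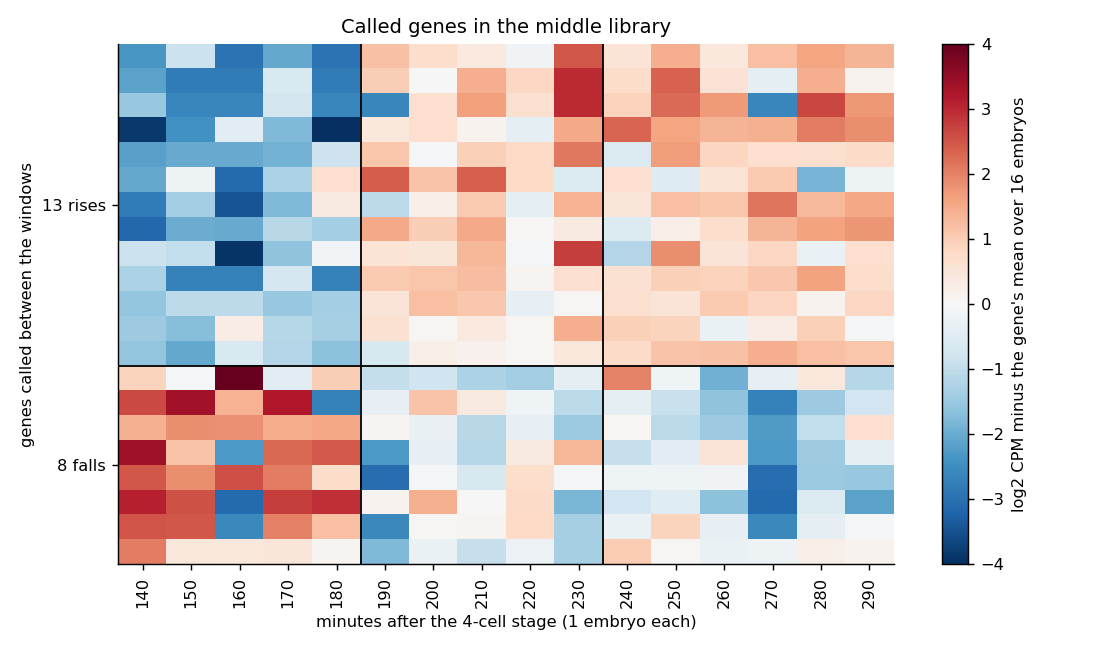
Rows are the 13 rises and 8 falls, each sorted by size of change, and columns the 16 embryos of the middle library in order of time, with vertical lines between the windows. Colour is log2 CPM minus the gene's mean over the 16 embryos. The rises are low before 190 minutes and the falls high, apart from single embryos such as the shallow ones at 160, 180 and 270 minutes.

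The embryos of the other libraries did not enter this comparison, and the called genes were looked up in them in CPM of all listed reads. All 13 rises had a higher mean in the late library (300 to 430 minutes) than in the early one (1 cell to 130 minutes), against 47.9% of the genes tested. Of the 8 falls, 6 had a lower mean there, against 52.1% of the genes tested. The median rise stood at 6.93 in embryos of 1, 2 and 4 cells, 0.52 at 10 to 50 minutes, 27.2 at 60 to 130, 134 at 140 to 180, 610.3 at 190 to 230, 472 at 240 to 290, 624 at 300 to 360 and 322 at 370 to 430 minutes. The median fall stood at 777, 857, 1121, 715, 110.0, 55.0, 39.6 and 13.04 in the same order. Of the rises, 7 had their highest window at 300 to 360 minutes, against 11.9% of the genes tested, and 3 at 190 to 230 minutes, against 15.4%. Of the falls, 4 had theirs at 140 to 180 minutes, against 15.4%. The values at 140 to 180 and 190 to 230 minutes are those that chose the genes. Levels set across libraries are scaled within each embryo only, and a difference between libraries cannot be told apart from time.

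**Figure D4:**
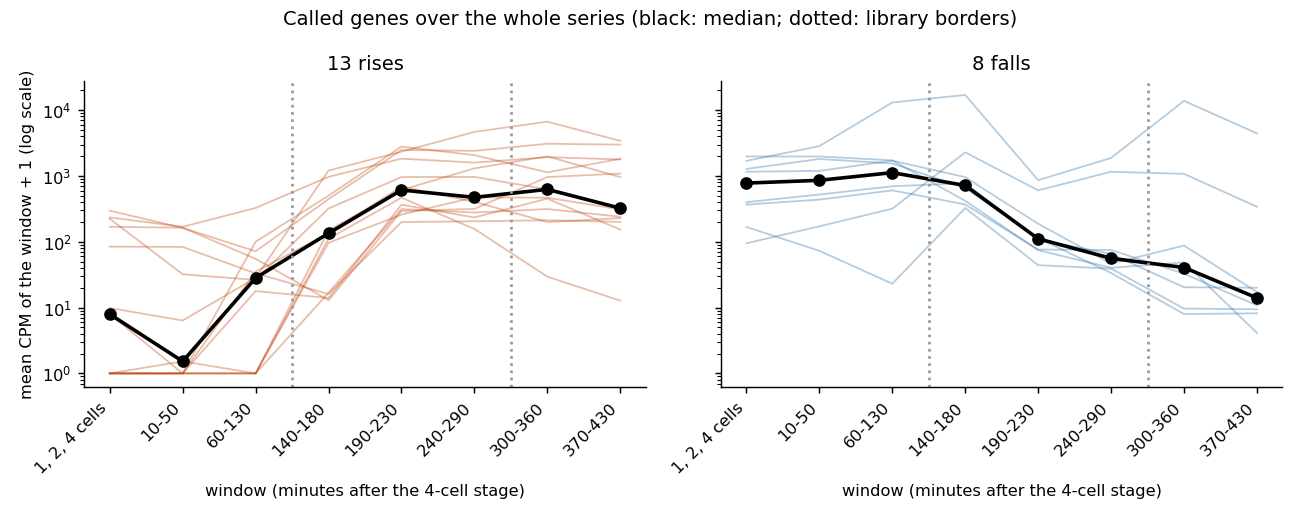
Mean CPM of all listed reads plus 1, on a log scale, over the 8 windows of the series, for each rise (left) and each fall (right), with the median in black and library borders dotted. The median rise climbs to 610.3 at 190 to 230 minutes and the median fall drops to 110.0 there, while CJA38381, among the falls, stands at 13841 at 300 to 360 minutes.

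Genes with no read up to 50 minutes leaned upwards. There were 51 such genes among those tested, and 41 of them (80.4%) were higher from 190 to 230 minutes, against 56.9% of all genes tested. Their median log2 change was 0.76, against 0.12 for all genes. Of the 51, 5 were called and all 5 rose. They took 1.53%, 1.06%, 1.33%, 0.98% and 1.99% of the tested reads at 190, 200, 210, 220 and 230 minutes, against 0.63%, 0.72%, 0.96%, 0.79% and 0.80% at 140, 150, 160, 170 and 180 minutes, with no overlap. These genes passed the filter on low counts through reads of the middle library, where the earlier window holds the shallowest embryos. Their count, their direction, their median change and their share of reads are thus not free of the level compared. The values describe the genes that passed and are no test of a lean upwards.

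Slopes on time within the late library come from other embryos. Of the 1046 genes tested in both places, 21 (2.01%) had a positive late slope at an edgeR adjusted p under 0.05 and 47 (4.49%) a negative one. Over all 1046, 62.0% were higher from 190 to 230 minutes, with a median log2 change of 0.19, and 12 rises and 2 falls were called. With so few calls among 1046 genes, the counts called in the groups below are no result about those groups. Of the 21 with a positive late slope, 15 were higher (71.4%), with a median of 0.63, and 0 were called. Their share of the tested reads was 1.14% to 1.68% in the later embryos and 0.64% to 1.06% in the earlier ones. Of the 47 with a negative late slope, 24 were higher and 23 lower (51.1% higher), with a median of 0.04, and 1 was called, a fall. Their share was 4.93% to 8.34% in the later embryos and 7.17% to 11.5% in the earlier ones, with means of 7.01% ± 1.43 and 9.25% ± 1.92 (SD, n = 5 each) and an overlap. None of the 12 rises that could be tested in the late library had a called slope there. Of the 2 falls that could be tested, 1 did, CJA09327, which also fell late.

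A steady course over time was fitted to the 10 embryos alone, in which a test between the windows called 55 of 1470 genes. A slope was called for 51 of 1470 genes (3.47%), 31 up and 20 down, with edgeR adjusted p-values from 8.1e-05 to 0.046, and 244 genes had an unadjusted p under 0.05. The split depended on the embryos and the filter: it was 30 up and 39 down without the embryo at 230 minutes, where 50 of the 51 kept their sign, and 14 up and 15 down with a minimum count of 30. Of the 13 rises between the windows, 9 could be tested for a slope. CJA01042 and CJA04437 did not pass the filter of that fit, so their slopes were not tested. Among the called slopes, CJA43237 had the steepest rise, 0.56 ± 0.10 log2 units per 10 minutes (SE, edgeR adjusted p = 0.0011). Its CPM was 600.3, 722, 494, 342 and 1314 at 190, 200, 210, 220 and 230 minutes, against 11.5, 67.1, 331, 117 and 0 at 140, 150, 160, 170 and 180 minutes. No later embryo was below the highest earlier one, whose 331 CPM was 1 read. That held only with TMM scaling. In CPM of all listed reads, the earlier embryos reached 582 and the later ones began at 289. The gene had no read in the early library and went on to 1613 ± 449 CPM at 240 to 290 minutes (SD, n = 6).

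CJA02858 rose by 0.53 ± 0.10 log2 units per 10 minutes (SE, edgeR adjusted p = 0.0012). It had 85.8, 248, 443, 149 and 563 CPM at 190, 200, 210, 220 and 230 minutes, against 11.5, 67.1, 0, 45.2 and 264 at 140, 150, 160, 170 and 180 minutes. The windows overlapped through the shallow embryos at 190 and 180 minutes, where its values rest on 1 read each. The steepest falls were those of CJA38381, -0.51 ± 0.12 per 10 minutes (SE, edgeR adjusted p = 0.0063), and CJA08747, -0.48 ± 0.09 (SE, edgeR adjusted p = 8.1e-04).

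The slope of CJA38381 was -0.17 without the embryo at 160 minutes (edgeR adjusted p = 0.17) and -0.15 without the shallow embryos (0.21), in a range of 5.4e-08 to 0.87 over the alternatives. The other 3 slopes passed without each single embryo and without the shallow embryos in every such fit that tested them. The count was 41 without the shallow embryos, 80 without the embryo at 220 minutes and 1 with limma-trend, which passed none of the 4 named slopes (adjusted p between 0.60 and 0.87). Of the 51 genes, 28 were called again without the shallow embryos.

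For the next window of the same library, 240 to 290 minutes, 20 of 1797 genes (1.11%) passed against 190 to 230 minutes, 15 higher and 5 lower. The windows differ in number and depth of embryos, so the counts do not compare the extent of the changes. No alternative setting was run for the count of 20. Both comparisons share the 5 embryos from 190 to 230 minutes. None of the 21 genes was called again there. The 13 rises had a median further change of 0.07 on the log2 scale, 7 up and 6 down, and the 8 falls one of -0.44, 3 up and 5 down. Whether the change into 190 to 230 minutes differed from the change out of it was tested by gene, and 0 genes passed (0%) in edgeR, with 138 at an unadjusted p under 0.05. DESeq2 called 2 and limma-trend 0. It was 1 without the embryo at 200 minutes and 2 without that at 230 minutes.

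The lowest p of that test belonged to CJA02671. This gene had 3087, 1321, 2761, 2447 and 6194 CPM at 190, 200, 210, 220 and 230 minutes, against 298, 336, 331, 361 and 793 at 140, 150, 160, 170 and 180 minutes. In these TMM-scaled values the windows did not overlap, and the highest earlier value, at 180 minutes, rests on 3 reads. In CPM of all listed reads, with no TMM scaling, they did. The earlier embryos reached 1135 and the later ones began at 1114. Between the windows its log2 change was 3.10 ± 0.50 (SE, edgeR adjusted p = 0.0016), and to the 2480 ± 1145 CPM at 240 to 290 minutes (SD, n = 6) it was -0.35 ± 0.38 (SE, edgeR adjusted p = 0.76). The changes differed by 3.45 ± 0.71 (SE), which did not pass (edgeR adjusted p = 0.066, in a range of 0.019 to 0.80 over the alternatives). Its rise between the windows was called whichever embryo was left out and without the shallow embryos.

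The opposite shape, a fall followed by a rise, was clearest in CJA09327. It had 343, 1019, 633, 1031 and 476 CPM at 190, 200, 210, 220 and 230 minutes, against 5099, 1678, 1655, 1707 and 1321 at 140, 150, 160, 170 and 180 minutes, and 1436 ± 539 CPM at 240 to 290 minutes (SD, n = 6). All later embryos were below all earlier ones. The change between the windows was -1.74 ± 0.42 (SE, edgeR adjusted p = 0.027) and the next one 0.98 ± 0.39 (SE, edgeR adjusted p = 0.24). The fall did not pass without the embryo at 140, 150, 170, 190, 210 or 230 minutes, with a log2 change of -1.13 without that at 140 minutes, nor without the shallow embryos (edgeR adjusted p = 0.097, in a range of 0.0018 to 0.26 over the alternatives). The changes differed by -2.72 ± 0.73 (SE), which did not pass (edgeR adjusted p = 0.22, in a range of 0.028 to 0.80 over the alternatives).

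A gene can end at several 3′ sites, and the share of its reads at each was compared for 345 peaks of 161 genes. No share passed (0%, quasi-binomial regression, lowest adjusted p = 0.57), and 24 peaks in 17 genes had an unadjusted p under 0.05, 12 up and 12 down. The median difference of shares between the windows was 5.67 percentage points in size, and 11 peaks differed by more than 20. For 293 of the 345 peaks only 3 of the earlier embryos had the 5 reads of the gene that were asked for. The power of this test is not given here. The count was 3 of 52 peaks without the embryo at 170 minutes.

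In both directions the lowest p fell in CJA10373. Of its reads, the peak at location 5429 held 42.9%, 56.1%, 44.4%, 64.8% and 27.3% at 190, 200, 210, 220 and 230 minutes, against 85.9%, 78.9% and 93.8% at 140, 150 and 170 minutes. These shares are of 7, 57, 18, 71 and 11 reads of the gene in the later embryos and of 71, 19 and 80 in the earlier ones. The groups did not overlap, and the embryos at 160 and 180 minutes had too few reads of the gene to enter. The means were 47.1% ± 14.3 in the later window (SD, n = 5) and 86.2% ± 7.41 in the earlier one (SD, n = 3), a difference of -39.1 percentage points. With embryos of 1 read or more admitted, which brings in those at 160 and 180 minutes, it was -18.0 percentage points. It was not called in the quasi-binomial regression (p = 0.0027, adjusted over all peaks 0.57, in a range of 0.46 to 0.68 over the alternatives).

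The peak at location 5265 held 0%, 10.5%, 16.7%, 31.0% and 18.2% at 190, 200, 210, 220 and 230 minutes, against 1.41%, 0% and 2.5% at 140, 150 and 170 minutes. From 240 to 290 minutes its share did not climb evenly. It was 0%, 14.3% and 29.8% at 240, 250 and 260 minutes, on 4, 7 and 439 reads of the gene. At 270, 280 and 290 minutes it was 72.7%, 67.8% and 60%, on 11, 90 and 50 reads. The windows from 140 to 230 minutes overlapped through the embryo at 190 minutes, and the change was not called (quasi-binomial adjusted p = 0.57 over all peaks). The mean share at 5265 differed by 14.0 percentage points between these windows, less in size than the -39.1 at 5429. The reads of the gene in neither peak thus took a larger mean share in the later window. What the location numbers count from, and in which direction, is stated neither in the labels nor in the file headers.

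**Figure D5:**
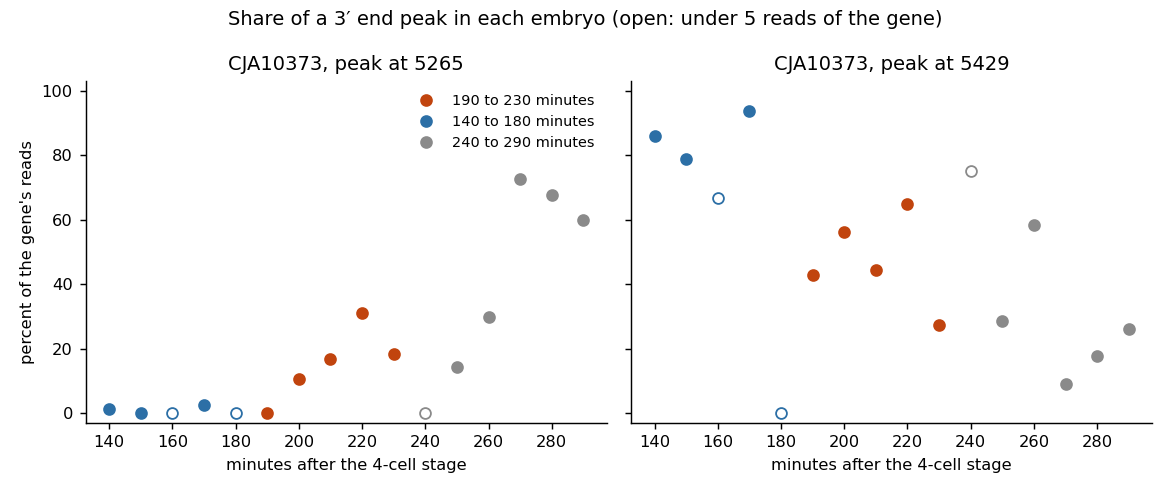
Percent of the reads of CJA10373 in the peaks at locations 5265 (left) and 5429 (right), in each embryo of the middle library against minutes after the 4-cell stage, with open circles for embryos with under 5 reads of the gene. From 190 to 230 minutes the peak at 5429 holds 27.3% to 64.8%, below the 78.9% to 93.8% of the embryos from 140 to 180 minutes with 5 or more reads.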

How the data were processed

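Per the file headers, the authors' deposited table holds raw counts for 3′ end peaks and a total for each gene, in whole numbers and 1 column per embryo. A second deposited sheet ties each column to a time, a barcode and a pooled library. CASAVA 1.8, Bowtie2 2.1.0 and HTSeq 0.5.4p3 are listed per the submitters' processing notes, without their roles. Genome build, annotation and peak caller are not stated there. Reads that are PCR copies may be counted more than once, so counting intervals cover counting error only, and totals are those of the 3955 listed genes, not full depth.

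Gene totals of the 16 middle-library embryos in 3 windows were fitted with edgeR 4.0.16 in R 4.3.3 (filterByExpr, TMM, quasi-likelihood F test, two-sided, Benjamini-Hochberg over the genes tested, threshold 0.05). The 1797 genes tested held 90.7% of the reads of the 10 embryos. SE is the log2 change divided by the root of F. CPM is relative to the tested genes and divided by the TMM factor. Slopes used the 10 embryos alone. Peak shares (peaks of at least 10% of the gene's reads, gene reads of 5 or more in an embryo, 3 or more embryos a window) were fitted by quasi-binomial regression with a dispersion of at least 1. Embryo values were tested by exact permutation over 252 splits, and genes at a common depth were computed by rarefaction. DESeq2 1.42.0 and limma 3.58.1 served as alternatives, beside other scalings and filters, leaving out each embryo and leaving out shallow ones. The fits were also run on simulated data, but the outcome is not given here and no result rests on it. Named genes are the 2 rises and 2 falls with the largest log2 change or slope among called genes with at least 50 reads in the 10 embryos, or, where none was called, the lowest p in each direction. The windows, rules and groups of genes were chosen with earlier results of these data known. The deposited list of barcode sequences was not used here.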

Additional observations from a re-analysis of the deposited data

Results flagged for a closer look

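Of 34 groups of 5 or 6 embryos examined, 11 had 1 embryo far from the others, where the rule's nominal rate is about 1 in 20. That rate was not checked for these groups, many of which are levels of genes chosen for their change and rest on a few reads. From 140 to 180 minutes, the embryo at 180 minutes had 884 genes at the common depth, against 831 to 840.2 in the other 4, and the embryo at 160 minutes had 16.8% of its reads in its 10 most abundant genes, against 9.82% to 10.97%. In the same window CJA38381 stood at 42356 CPM in the embryo at 160 minutes, against 1373 to 3699 in the others. CJA02671 stood at 793 CPM and CJA02858 at 264 CPM in the embryo at 180 minutes, on 3 reads and 1 read, against up to 361 and up to 67.1 in the others. CJA01042 stood at 67.1 CPM at 150 minutes on 1 read, against up to 18.1, and CJA04437 at 72.3 CPM at 170 minutes, against up to 11.5. CJA09327 stood at 5099 CPM at 140 minutes, on 445 reads, against 1321 to 1707. From 190 to 230 minutes, CJA04437 stood at 1097 CPM at 230 minutes, against 124 to 367. From 240 to 290 minutes, CJA09327 reached 2482 CPM, against 1021 to 1445, and CJA38381 7413 CPM, against 478 to 2518.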

How the results depend on the processing

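No paired analysis was possible because the labels number no replicates across the windows. The count of changed genes, 21, was 45 without a filter on low counts, 37 with the DESeq2 test, 12 with limma-trend (all higher, with the median log2 change of all genes at 0.79), 13 without the shallow embryos, 55 in a fit of the 10 embryos alone and 34 in one of all 46, and between 5 and 35 with any of the 10 embryos left out. With 3 other scalings, a minimum count of 30 and time within the window as a covariate it was 16 to 24. The count of slopes, 51, was 156 without a filter, 29 with a minimum count of 30 and 1 with limma-trend, and between 49 and 80 with an embryo left out. The count of genes whose changes into and out of the later window differ, 0, was 2 without a filter and 2 with DESeq2, and between 0 and 2 with an embryo left out. The count of peaks stayed at 0 except for 3 without the embryo at 170 minutes. The gain of 41.6 genes at the common depth was 111 genes at 10000 reads and 48.3 without the shallow embryos, neither past the threshold with the fewer embryos left, and between 37.8 and 51.0 with an embryo left out. The share of the most abundant genes differed by -2.25 percentage points for 10 genes, between -2.79 and -0.94 with an embryo left out (-0.94 without that at 160 minutes), by -1.06 without the shallow embryos and by -4.26 for 50 genes. The cause of these changes was not tested. None of the genes and peaks named in the text, and none of the embryo values, turned its direction under an alternative that gave a value, but the split of the calls turned from 13 higher and 8 lower to 6 and 7 without the shallow embryos, and that of the slopes from 31 up and 20 down to 30 and 39 without the embryo at 230 minutes and to 14 and 15 with a minimum count of 30. Depth limits the earlier window most, where the embryos at 160 and 180 minutes hold 1719 and 2643 reads.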

Other observations

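The 5 embryos of the series in which CJA38381 exceeded 10000 CPM of all listed reads came from all 3 libraries and were among the shallow ones. They are those at 110 minutes (80952 on 1890 reads in all), 310 minutes (78729 on 2896), 160 minutes (74462 on 1719), 390 minutes (23861 on 2305) and 130 minutes (14913 on 7443). Other shallow embryos were lower, such as 903 at 190 minutes on 12178 reads and 5297 at 180 minutes on 2643.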
